A study of Saccharomyces cerevisiae with 96 samples.

Results

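The 10 genes described here encode the fatty acid oxidation machinery of the yeast peroxisome. They were chosen by gene name and systematic name: FAA2 (YER015W), PXA1 (YPL147W), PXA2 (YKL188C), POX1 (YGL205W), FOX2 (YKR009C), POT1 (YIL160C), SPS19 (YNL202W), ECI1 (YLR284C), CTA1 (YDR256C) and CAT2 (YML042W). They are 10 of the 7620 RNAs listed in the transcriptome tables, 6598 of which are mRNAs, and 10 of the 7647 RNAs of the capture tables. All 10 were found in every table, and the rule uses no measured value.

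Budding yeast degrades fatty acids only in peroxisomes, where each round of the cycle shortens an acyl-CoA and releases acetyl-CoA. The genes of this pathway are textbook examples of glucose repression: they are shut off in glucose, and oleate turns them on through the transcription factors Oaf1, Pip2 and Adr1. Faa2 activates medium-chain fatty acids and Pxa1 with Pxa2 forms the ABC transporter for long-chain acyl-CoA. Pox1, Fox2 and Pot1 carry out the core cycle, Sps19 and Eci1 prepare unsaturated chains for it, Cta1 degrades the hydrogen peroxide that Pox1 makes, and Cat2 transfers acetyl groups to carnitine for export.

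NAD-capped RNA and the transcriptome were measured in 8 strains of Saccharomyces cerevisiae to learn how the enzymes Npy1, Dxo1 and Rai1 act on NAD caps. The 7 mutants were npy1Δ (npy1::kanMX4), dxo1Δ (dxo1::natNT2), rai1Δ (rai1::hphNT1), dxo1Δnpy1Δ, dxo1Δrai1Δ, rai1Δnpy1Δ and the triple mutant dxo1Δrai1Δnpy1Δ, and the reference was the wild type (WT), BY4742. All strains carry MATα his3Δ1 leu2Δ0 lys2Δ0 ura3Δ0, and all were grown in YPD, a rich glucose medium, at 30 °C to log phase and collected at an OD590 of 0.8. Deletion cassettes were introduced by PCR-based recombination, and spores of crosses gave the mutants. The labels give 3 biological replicates per group, and how many spore clones stand behind each strain is not given in the sources used here. The 24 transcriptome libraries, from rRNA-depleted and sheared RNA, were counted by the authors over a region around the start codon of each mRNA (the 5′ region, of equal length in every mRNA) and, separately, over the coding sequence. In unfragmented NAD captureSeq, 48 libraries here, the enzyme ADPRC tags the NAD cap so that capped RNA can be pulled down (+ADPRC), and a reaction without the enzyme (−ADPRC) measures background.

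Counted reads per library ranged from 4926021 to 17733417 in 5′ regions, from 23241152 to 43152924 in coding sequences and from 470978 to 29300164 in capture, where mRNAs held only 1162 to 872995 of them. By the labels, WT and npy1Δ transcriptomes share 1 sequencing run and the other 6 mutants share another, so for those 6 the run and the deletion cannot be told apart when they are set against WT. The same 3 WT libraries serve in all 7 comparisons with WT, which are therefore not independent. The deleted genes had few reads where they should: NPY1 had 0 to 13 reads in its 5′ region in the 4 strains that lack it, against 32 to 51 in WT. RAI1 had 0 to 1 reads in the strains that lack it, against 7 to 15 in WT, and for DXO1 the coding sequence had 4 to 18 reads in the strains that lack it, against 89 to 144 in WT. The signal recognition particle RNA SCR1 took 29.6% to 44.3% of the 5′-region reads in mutants, against 47.5% to 49.4% in WT.

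Transcripts of the pathway were far lower in every mutant than in WT. In the coding sequence, all 10 genes fell in all 7 mutants (adjusted p below 0.05 in edgeR's quasi-likelihood test over all RNAs tested), with a median log2 fold change of the 10 genes between −5.00 and −4.69, against 0.03 to 0.09 for all RNAs tested. A call of this kind was common: 39.5% of all RNAs tested were called lower in npy1Δ, 41.1% in dxo1Δ, 41.5% in rai1Δ, 41% in dxo1Δnpy1Δ, 41.2% in dxo1Δrai1Δ, 40.9% in rai1Δnpy1Δ and 41.8% in the triple mutant. In these bulk samples, fewer cells that express a gene and less RNA per cell cannot be told apart.

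In the 5′ region, 9 of the 10 genes fell in npy1Δ, where 34.5% of all RNAs tested were called lower and 35.6% higher. The count was also 9 lower in dxo1Δ (36% lower and 38% higher over all RNAs), in rai1Δ (36.2% and 40.4%), in dxo1Δrai1Δ (35.5% and 39.8%), in rai1Δnpy1Δ (36.4% and 39.3%) and in the triple mutant (36.8% and 40.6%), and 8 in dxo1Δnpy1Δ (36.7% and 38.2%). The remaining genes were CTA1, which was called higher in rai1Δ, dxo1Δrai1Δ, rai1Δnpy1Δ and the triple mutant, and PXA1, which was not called in dxo1Δnpy1Δ. The median 5′ log2 fold change of the 10 genes lay between −5.68 in dxo1Δ and −4.51 in rai1Δnpy1Δ, against 0.03 to 0.14 for all RNAs tested. Scaling by total counts in place of TMM factors moved the median of all RNAs by 1.46 to 1.74 on the log2 scale in the 5′ region and by 0.16 to 0.46 in the coding sequence. With that scaling 7 genes were called lower in every mutant, and 1 higher (2 in dxo1Δ and dxo1Δnpy1Δ), while the coding-sequence calls stayed at 10 lower.

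**Figure D1:**
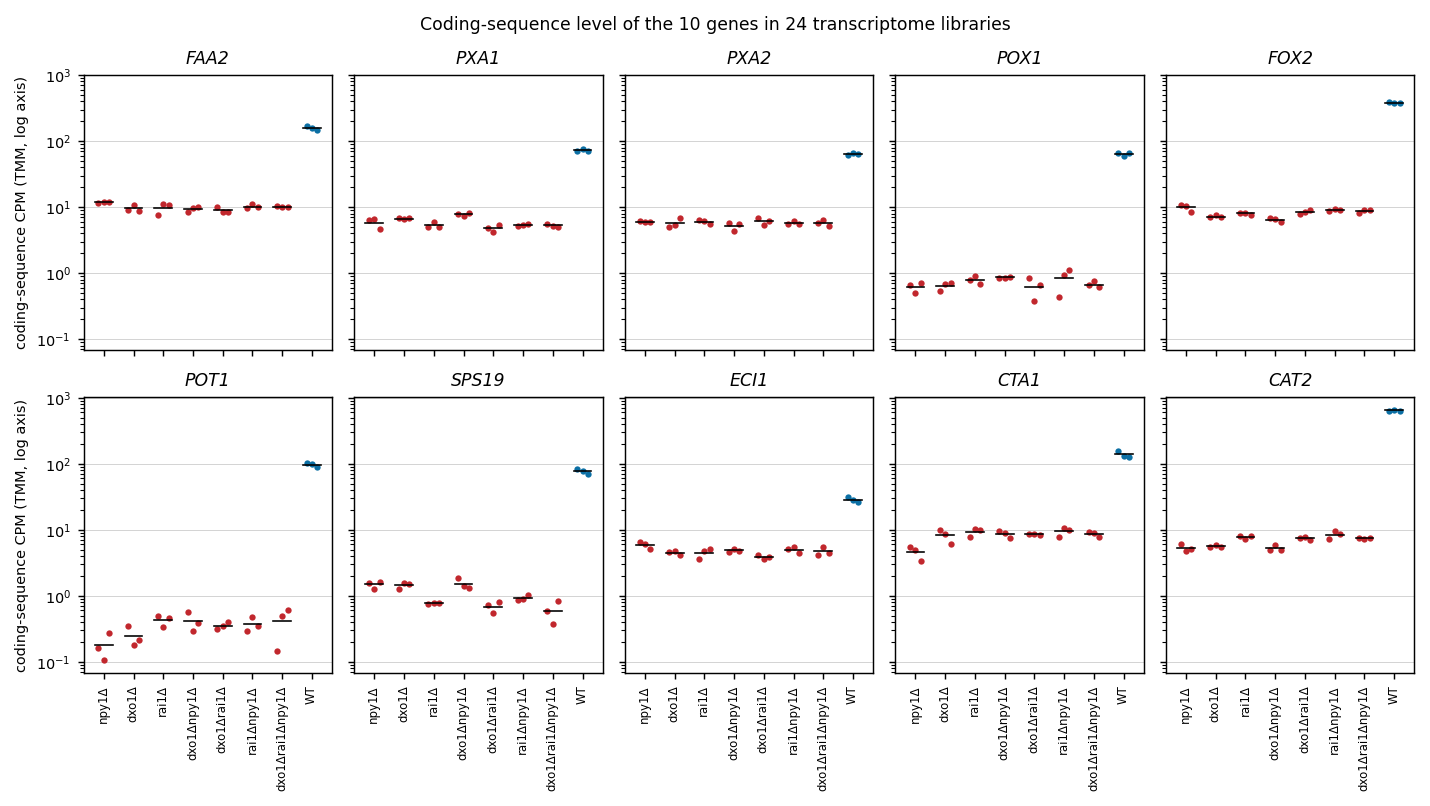
Coding-sequence level of each of the 10 genes, in TMM-scaled counts per 1000000 reads (CPM) on a log axis, in the 24 transcriptome libraries. Points are single libraries (red, mutants; blue, WT) and bars are means of 3; in every panel all 21 mutant libraries lie below the 3 WT libraries.

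FAA2, PXA1 and PXA2 bring fatty acids into the pathway. FAA2, the peroxisomal acyl-CoA synthetase, had 31, 26 and 25 5′-region reads in the npy1Δ libraries, against 176, 239 and 291 in WT. The groups did not overlap, and the log2 fold change was −3.55 ± 0.17 (SE, adjusted p = 2.63e-12). The other 6 mutants had 6 to 28 reads, and the 5′ log2 fold change of FAA2 ranged from −4.92 to −3.55 over the 7 mutants. Its coding sequence had 423, 461 and 399 reads in npy1Δ, against 4221, 4202 and 4547 in WT (log2 fold change −3.64 ± 0.09, adjusted p = 1.18e-10). Between 5.69% and 7.54% of the WT coding-sequence level of FAA2 was left in the mutants.

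PXA2, one subunit of the acyl-CoA transporter, had 4, 3 and 1 5′-region reads in npy1Δ, against 44, 41 and 50 in WT (log2 fold change −4.47 ± 0.36, adjusted p = 2.38e-09). Its coding sequence had 228, 229 and 196 reads in npy1Δ, against 1540, 1714 and 1947 in WT (−3.29 ± 0.08, adjusted p = 1.18e-10). Both regions placed every npy1Δ library far below every WT library. PXA1, the partner subunit, had 234, 247 and 154 coding-sequence reads in npy1Δ, against 1820, 1971 and 2153 in WT (−3.53 ± 0.12, adjusted p = 7.49e-10). In the 5′ region PXA1 had only 18, 7 and 6 reads in npy1Δ, against 26, 26 and 29 in WT (−1.85 ± 0.34, adjusted p = 9.98e-05). The 2 subunits of the transporter therefore kept similar shares of their WT coding-sequence level over the mutants, 6.63% to 10.8% for PXA1 and 8.23% to 9.67% for PXA2, while in the 5′ region 26.5% to 76.0% was left for PXA1 and 1.98% to 7.38% for PXA2.

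The smallest 5′ differences of PXA1 were in dxo1Δ and dxo1Δnpy1Δ. PXA1 had 22, 22 and 19 reads in dxo1Δ (−0.60 ± 0.27, adjusted p = 0.0426), and 22, 29 and 23 reads in dxo1Δnpy1Δ (−0.42 ± 0.27, adjusted p = 0.15), against the same WT libraries. The call in dxo1Δ was lost with DESeq2 (adjusted p = 0.111) and without any 1 of the 6 libraries (0.0509 to 0.117), and with total-count scaling the direction of PXA1 flipped in the 5′ region of all mutants but npy1Δ. With that scaling edgeR called PXA1 higher in dxo1Δ (adjusted p = 0.00105) and dxo1Δnpy1Δ (4.5e-05). It was not called in the other mutants (0.0832 to 0.63). At 26 to 29 WT reads, a smaller difference was not detectable.

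POX1, FOX2 and POT1 carry out the core cycle, and their 5′ regions were nearly empty in all mutants. POX1, the acyl-CoA oxidase of the first step, had 0, 0 and 2 reads in npy1Δ, against 102, 95 and 101 in WT. The WT level was 207 times that of npy1Δ, with a 95% counting interval of 56.9 to 1719 (exact, counting error only). Over the 21 mutant libraries POX1 had a median of 0 reads and at most 5, and in rai1Δ, where all libraries had 0, the 5′ level was at least 138-fold lower than in WT (floor of 3 reads over the group). Its coding sequence was better covered and gave 24, 19 and 23 reads in npy1Δ, against 1660, 1570 and 2016 in WT (log2 fold change −6.60 ± 0.13, adjusted p = 5.22e-11).

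FOX2, the multifunctional enzyme of the next steps, had 3, 0 and 0 5′-region reads in npy1Δ, against 232, 241 and 279 in WT. The WT level was 349 times that of npy1Δ (counting interval 119 to 1694). No mutant library had more than 4 FOX2 reads there. Its coding sequence had 398, 398 and 275 reads in npy1Δ, against 9739, 10112 and 11527 in WT (−5.18 ± 0.13, adjusted p = 1.04e-10). FOX2 kept 1.70% to 2.59% of its WT coding-sequence level over the mutants and 0.121% to 0.513% of its 5′ level.

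POT1, the thiolase that closes the cycle, had 0 reads in its 5′ region in all 3 npy1Δ libraries, against 56, 74 and 80 in WT, which makes it at least 97.3-fold lower. Its coding sequence had 6, 4 and 9 reads in npy1Δ, against 2626, 2587 and 2746 in WT (−8.98 ± 0.18, adjusted p = 5.22e-11). Of the 10 genes POT1 had the largest coding-sequence decrease in every mutant, from −8.98 in npy1Δ to −7.80 at the least, and 0.186% to 0.443% of the WT level was left.

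SPS19 and ECI1, which act on unsaturated fatty acids, differed from each other. SPS19, a 2,4-dienoyl-CoA reductase, had 1, 2 and 4 5′-region reads in npy1Δ, against 53, 60 and 96 in WT (−5.26 ± 0.36, adjusted p = 2.11e-10), and 57, 48 and 54 coding-sequence reads in npy1Δ, against 2135, 2049 and 2165 in WT (−5.62 ± 0.13, adjusted p = 8.15e-11). ECI1, an enoyl-CoA isomerase, had 34, 34 and 19 5′-region reads in npy1Δ, against 46, 65 and 75 in WT (−1.55 ± 0.21, adjusted p = 3.16e-06). Its 5′ direction flipped with total-count scaling in rai1Δ, dxo1Δnpy1Δ and rai1Δnpy1Δ, where edgeR then made no call (adjusted p = 0.132 to 0.906). The ECI1 coding sequence had 239, 233 and 171 reads in npy1Δ, against 789, 743 and 809 in WT (−2.17 ± 0.12, adjusted p = 2.05e-08). ECI1 was the mildest of the 10 genes in the coding sequence, with 13.6% to 20.8% of the WT level left, and SPS19 was among the strongest, with 0.771% to 1.98%.

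CAT2, the carnitine acetyltransferase, had the highest mean WT level of the 10 genes in both regions. It had 0 reads in its 5′ region in all 3 npy1Δ libraries, against 205, 281 and 326 in WT, and was at least 376-fold lower. The other mutants had 0 to 9 reads, the most in rai1Δ with 5, 6 and 9. Its coding sequence had 225, 179 and 171 reads in npy1Δ, against 15949, 17372 and 19707 in WT (−6.82 ± 0.13, adjusted p = 4.94e-11).

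**Figure D2:**
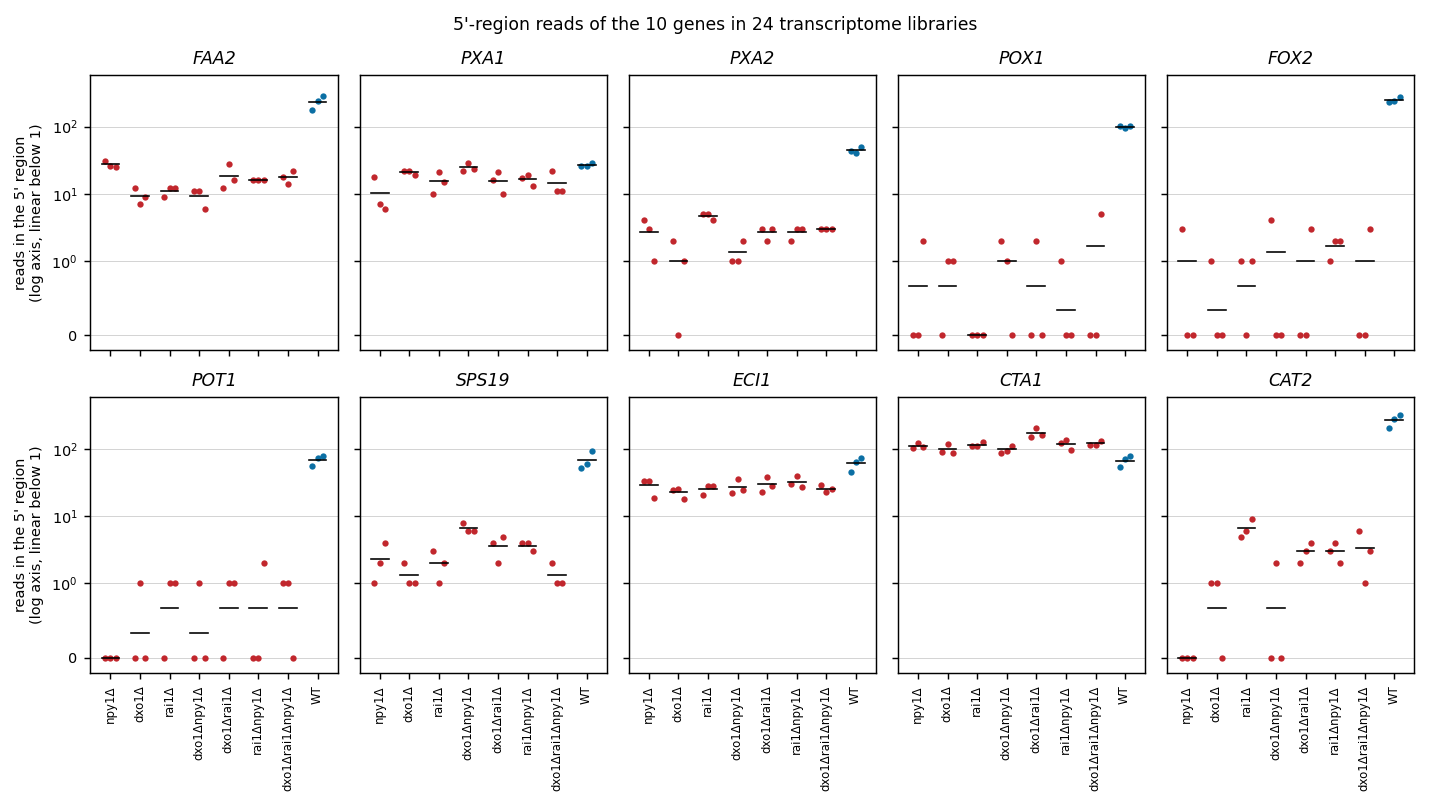
Reads in the 5′ region of each of the 10 genes in the 24 transcriptome libraries, on an axis that is logarithmic above 1 read and linear below it (red, mutants; blue, WT; bars, means of 3). POX1, FOX2, POT1 and CAT2 have 0 to 9 reads in every mutant library, and CTA1 alone has more reads in mutants than in WT.

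CTA1, the peroxisomal catalase, went opposite ways in the 2 counted regions. In the coding sequence it had 201, 188 and 110 reads in npy1Δ, against 3983, 3511 and 3894 in WT (−4.83 ± 0.17, adjusted p = 9.17e-10), and −4.83 to −3.88 over the 7 mutants. In the 5′ region it had 106, 125 and 107 reads in npy1Δ, against 54, 71 and 79 in WT (0.27 ± 0.17, adjusted p = 0.149), and these groups overlapped after scaling. The mutant level in the 5′ region was 120% to 164% of WT, while 3.30% to 6.86% of the coding-sequence level was left.

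The highest 5′ count of CTA1 was in dxo1Δrai1Δ, with 154, 209 and 166 reads (0.73 ± 0.16, adjusted p = 8.57e-05). It was also called higher in rai1Δ (0.34 ± 0.15, adjusted p = 0.0469), rai1Δnpy1Δ (0.42 ± 0.16, adjusted p = 0.0215) and the triple mutant (0.34 ± 0.15, adjusted p = 0.042), against the 3 WT libraries. These 3 calls were lost with DESeq2. They were also lost in rai1Δ without its replicate 2 or 3 or any WT library (adjusted p = 0.0568 to 0.163), in rai1Δnpy1Δ without its replicate 2 or WT replicate 1 (0.0548 to 0.0976) and in the triple mutant without its replicate 2 or 3 or any WT library (0.0622 to 0.135), while the call in dxo1Δrai1Δ was kept. In dxo1Δ, with 92, 121 and 87 reads, the difference was 0.32 (adjusted p = 0.0921), and in dxo1Δnpy1Δ, with 89, 96 and 114 reads, it was 0.28 (adjusted p = 0.171).

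Both regions were also compared by the log2 ratio of mean CPM to WT, with a small constant added to each mean. These ratios therefore differ from the tested fold changes given above. By them the 5′ value of CTA1 exceeded its coding-sequence value by 4.19 to 5.16. This gap ranked it between 1 and 6 from the top of 4160 mRNAs in each mutant, where the median over all mRNAs was between −0.01 and 0.09. RKM4 (YDR257C), the neighbouring gene upstream on the same strand, had 926 to 1056 coding-sequence reads in npy1Δ, against 147 to 218 in WT, and 417% to 664% of its WT level over the mutants. Its part in the 5′ count of CTA1 was not tested. The gap had the same sign in all 7 mutants for PXA1, at 1.76 to 2.82 (percentiles 97.7 to 99.0 of the mRNAs), SPS19, at 0.30 to 2.10 (71.7 to 97.7), POT1, at 1.09 to 1.70 (92.2 to 96.7), and ECI1, at 0.70 to 1.17 (86.7 to 93.1). It had the opposite sign in all 7 for FOX2, at −2.52 to −1.50 (percentiles 1.18 to 3.29), and PXA2, at −1.56 to −0.20 (3.15 to 38.0), and differed in sign between mutants for POX1, FAA2 and CAT2. For POX1, FOX2, POT1, PXA2, SPS19 and CAT2 the 5′ value rests on 0 to 9 reads per mutant library and is only rough. At such counts the added constant sets part of the gap. POT1 had 0 5′-region reads in npy1Δ, so the size and sign of its gap there come from the constant. In dxo1Δnpy1Δ POT1 had 0, 1 and 0 reads, and the sign of its gap depends on the constant there too. SPS19 had 2, 1 and 1 reads in dxo1Δ, where the sign of its gap also depends on the constant.

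**Figure D3:**
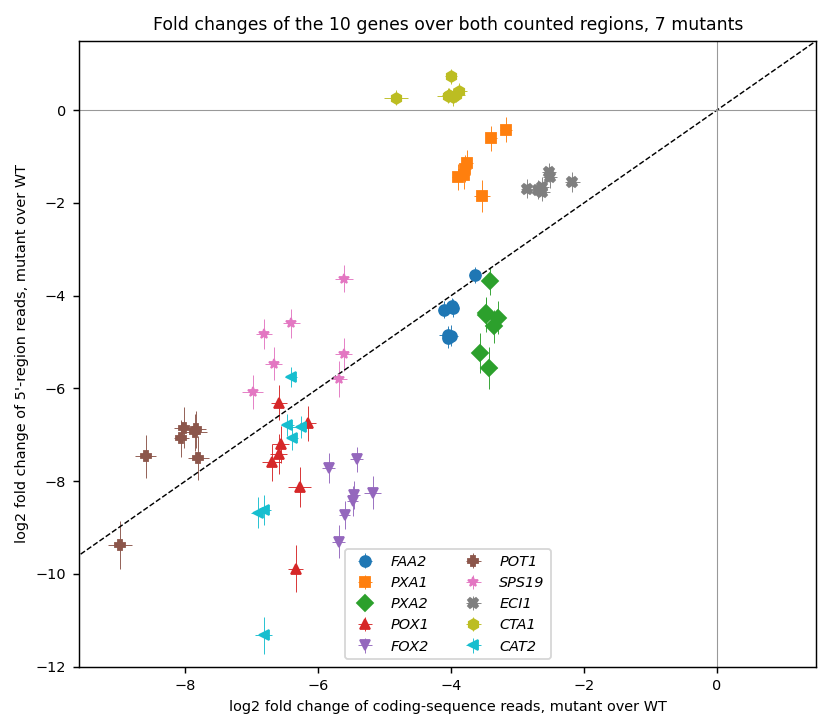
Log2 fold change of each of the 10 genes in the 7 mutants against WT, in the coding sequence (x axis) and in the 5′ region (y axis), with standard errors as bars and equal change as a dashed line. In all 7 mutants CTA1 lies far above the line, PXA1 and ECI1 above it, and FOX2 and PXA2 below it. The values are those of the edgeR tests, without the constant used for the gaps in the text. Fitted values of genes with 0 reads in a mutant are no bounds.

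The WT counts of the 5′ region can be put in order, since every window has the same length. This is an order of 5′ counts, which need not be that of the whole transcripts. CAT2 had 49.9 ± 4.31 CPM (SD, n = 3), FOX2 46.9 ± 3.45 and FAA2 43.3 ± 4.26, neighbours whose means were closer than their SDs combined. POX1 followed with 18.8 ± 3.19 CPM. After it came POT1 with 13.0 ± 0.755, SPS19 with 12.7 ± 2.35, CTA1 with 12.6 ± 0.699 and ECI1 with 11.4 ± 1.16, a group without POX1 that was not separated by its spread. PXA2 had 8.44 ± 1.06 CPM and PXA1 5.07 ± 0.552. Among 6598 mRNAs these levels ranked from 860 (CAT2) to 3542 (PXA1). In npy1Δ CTA1 ranked 2036, ECI1 4224, FAA2 4283 and PXA1 5391, and the other 6 genes between 6023 and 6469. The rank of CTA1 is that of its 5′ count, which did not follow its coding sequence. In WT the coding sequence of CTA1 had 126 to 157 CPM, against 59.5 to 65.6 for POX1, without a length correction. That is the reverse of their 5′ order.

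Each gene's coding-sequence level can be followed from strain to strain without a length correction. For CAT2 it was 5.34 ± 0.70 CPM in npy1Δ and 643 ± 14.5 in WT (SD, n = 3 each), and for FOX2 9.88 ± 1.33 CPM in npy1Δ and 381 ± 5.95 in WT. The thiolase gene POT1 had 0.180 ± 0.0853 CPM in npy1Δ and 97.0 ± 7.42 in WT. Over the 21 mutant libraries the coding-sequence reads spanned 4 to 19 for POT1 (median 9), 12 to 29 for POX1 (median 21), 9 to 59 for SPS19 (median 26), 129 to 359 for CAT2 (median 201) and 157 to 398 for FOX2 (median 230). For the genes with more left, they spanned 94 to 239 for ECI1 (median 133), 126 to 253 for PXA1 (median 157), 129 to 242 for PXA2 (median 167), 110 to 393 for CTA1 (median 254) and 199 to 461 for FAA2 (median 290).

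Together the 10 genes held 96.7 to 149 reads per 1000000 mRNA reads in the 5′ regions of mutant libraries, against 735 to 796 in WT. Much of this sum in mutants is CTA1. In npy1Δ it gave 106, 125 and 107 of the 197, 197 and 164 reads, against 54, 71 and 79 of 994, 1193 and 1406 in WT. Of coding-sequence reads they held 53.5 to 81.8 on the same scale in mutants, against 2145 to 2313 in WT. Over all 24 libraries, which fall into the 3 WT and the 21 mutant libraries, pairs of the genes had Pearson correlations of 0.934 to 0.996 in coding-sequence level and of −0.54 to 0.99 in the 5′ region, where every pair with CTA1 was negative. Within the 21 mutant libraries the pairs ranged from −0.76 (SPS19 with CAT2) to 0.75 (FAA2 with ECI1) in the coding sequence, with a median of 0.02, and from −0.58 to 0.53 in the 5′ region. These correlations are descriptions and share the libraries' depth and strain.

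The mutants were then compared with each other, in pairs that differ by 1 deletion. Strains that differ by the deletion of NPY1 alone gave no member called: with edgeR 0 of 6 tested in the 5′ region between dxo1Δnpy1Δ and dxo1Δ (0.0289% of all RNAs tested were called; 1 member at an unadjusted p below 0.05), 0 of 8 between rai1Δnpy1Δ and rai1Δ (0.0574%; 0 members) and 0 of 8 between the triple mutant and dxo1Δrai1Δ (0.948%; 1 member). DESeq2 called 0 in each. In the coding sequence of all 10 genes, edgeR also called 0 in these comparisons (0.0141%, 0.042% and 0.182% of all RNAs), with 0, 0 and 1 members at an unadjusted p below 0.05. DESeq2 was not run on coding sequences between mutants.

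The deletion of DXO1 in a rai1Δ background likewise gave 0 of 7 members called between dxo1Δrai1Δ and rai1Δ in the 5′ region (0.718% of all RNAs; 2 members at an unadjusted p below 0.05) and 0 of 8 between the triple mutant and rai1Δnpy1Δ (0.115%; 0 members), with 0 calls by DESeq2. Over coding sequences edgeR called 0 of 10 in both (0.014% of all RNAs in each) with 0 members at an unadjusted p below 0.05. A p above the threshold does not show that the levels were equal.

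The deletion of RAI1 in a dxo1Δ background gave member calls in the coding sequence at about the share found over all RNAs, so the counts do not set these genes apart. Between dxo1Δrai1Δ and dxo1Δ 3 of 10 members were called there (37.3% of all RNAs were called): PXA1 fell (−0.48 ± 0.11, adjusted p = 0.00905), SPS19 fell (−1.09 ± 0.22, adjusted p = 0.00412) and CAT2 rose (0.45 ± 0.10, adjusted p = 0.00536). In the 5′ region 0 of 7 members were called by edgeR, where 15.5% of all RNAs were, with 2 at an unadjusted p below 0.05 and 0 called by DESeq2. The lowest adjusted p there was 0.051 for PXA1, with 16, 21 and 10 reads in dxo1Δrai1Δ against 22, 22 and 19 in dxo1Δ.

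Between the triple mutant and dxo1Δnpy1Δ the coding sequence showed 4 of 10 called (37.8% of all RNAs). PXA1 fell (−0.57 ± 0.11, adjusted p = 0.00223) and so did SPS19 (−1.32 ± 0.29, adjusted p = 0.00493), while CAT2 rose (0.50 ± 0.11, adjusted p = 0.0063) and FOX2 rose (0.43 ± 0.10, adjusted p = 0.00848). The 5′ region showed 2 of 9 called (28.6% of all RNAs), PXA1 with 22, 11 and 11 reads in the triple mutant against 22, 29 and 23 in dxo1Δnpy1Δ (−1.01 ± 0.31, adjusted p = 0.0155), and SPS19 with 2, 1 and 1 reads against 8, 6 and 6 in the same strains (−2.47 ± 0.65, adjusted p = 0.00573). The PXA1 call was lost without replicate 2 or 3 of the triple mutant or replicate 2 of dxo1Δnpy1Δ (adjusted p = 0.053 to 0.1).

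In 2 further comparisons with npy1Δ the run changes with the deletion, and the 2 cannot be told apart. Both again gave counts near or below the share over all RNAs. Between rai1Δnpy1Δ and npy1Δ the coding sequence showed 3 of 10 called (43.5% of all RNAs): SPS19 −0.70 ± 0.22 (adjusted p = 0.0285), CTA1 1.03 ± 0.20 (adjusted p = 0.00359) and CAT2 0.64 ± 0.15 (adjusted p = 0.00872). In the 5′ region 2 of 8 members were called (36.9% of all RNAs), FAA2 (−0.70 ± 0.26, adjusted p = 0.0465) and CAT2, with 3, 4 and 2 reads in rai1Δnpy1Δ against 0 in all 3 npy1Δ libraries (adjusted p = 0.0163). Neither was called by DESeq2 or with the replicate number as a block (0 called). Without any 1 of the 6 libraries FAA2 was not called (adjusted p = 0.0524 to 0.127), and without rai1Δnpy1Δ replicate 2 CAT2 was not either (adjusted p = 0.0565).

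Between dxo1Δnpy1Δ and npy1Δ the coding sequence showed 3 of 10 called (29.6% of all RNAs): FOX2 −0.60 ± 0.14 (adjusted p = 0.0117), FAA2 −0.35 ± 0.11 (adjusted p = 0.0381) and CTA1 0.92 ± 0.19 (adjusted p = 0.00856). The 5′ region showed 2 of 7 called (27.6% of all RNAs). FAA2 had 11, 11 and 6 reads in dxo1Δnpy1Δ against 31, 26 and 25 in npy1Δ (−1.33 ± 0.30, adjusted p = 0.00362), and PXA1 22, 29 and 23 reads against 18, 7 and 6 in the same strains (1.46 ± 0.35, adjusted p = 0.00591).

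The rest of the pathway's surroundings was read from lists of genes by role. The carnitine shuttle genes CRC1, YAT1 and YAT2, which pass acetyl groups on into mitochondria, all fell in both regions of every mutant. Their median lay between −5.52 and −3.92 in the 5′ region and between −6.41 and −5.71 in the coding sequence. Over all RNAs, 34.5% to 36.8% were called lower in the 5′ region and 39.5% to 41.8% in the coding sequence. YAT1 had 5, 0 and 8 5′-region reads in npy1Δ, against 378, 566 and 829 in WT (−7.47 ± 0.34). Of 27 peroxin genes, which build the organelle, 14 fell and 4 rose in the 5′ region in npy1Δ (34.5% and 35.6% over all RNAs). Their 5′ median lay between −1.11 and −0.66 over the mutants. In the coding sequence 22 to 23 fell and 2 to 4 rose over the mutants (median −1.41 to −1.09). There 39.5% to 41.8% of all RNAs were called lower, and the share called higher was not counted. PEX18, a coreceptor for protein import, had 17, 12 and 10 coding-sequence reads in npy1Δ, against 1259, 1402 and 1384 in WT (−6.98 ± 0.15), and PEX2, a ubiquitin ligase subunit, had 1659, 1596 and 1284 in npy1Δ, against 2635, 2443 and 3307 in WT (−1.18 ± 0.09).

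Of 10 other enzymes that work beside the pathway, 5 fell and 2 rose in the 5′ region in npy1Δ (median −1.59 to −0.62 over the mutants), beside 34.5% lower and 35.6% higher over all RNAs. CIT2, the peroxisomal citrate synthase, had 145, 124 and 87 reads in npy1Δ, against 2315, 2652 and 2935 in WT (−4.95 ± 0.18), and MDH3, the peroxisomal malate dehydrogenase, fell less (−1.42 ± 0.14). FAA4, a long-chain acyl-CoA synthetase of the other cell membranes, went the other way, with 2920, 2778 and 1672 reads in npy1Δ against 54, 60 and 89 in WT (4.71 ± 0.20). Of 6 regulator genes 4 fell and 0 rose in npy1Δ (median −1.24 to −0.53 over the mutants), beside the same shares. With lists this small the counts do not set them apart from all RNAs. ADR1, an activator of the pathway under glucose limitation, had 116, 121 and 52 reads in npy1Δ, against 1146, 1229 and 1401 in WT (−4.19 ± 0.21), and PIP2, an oleate-responsive activator, had 33, 45 and 32 in npy1Δ, against 167, 169 and 152 in WT (−2.63 ± 0.20).

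Genes that mark the carbon source moved with these results. All 9 glucose-repressed genes of the list fell in the 5′ region of every mutant (median −9.15 to −7.67). In the coding sequence 8 to 9 fell (median −7.93 to −7.45), the exception in npy1Δ being ADH2, an alcohol dehydrogenase (0.95 ± 0.16). Over all RNAs, 34.5% to 36.8% were called lower and 35.6% to 40.6% higher in the 5′ region of the mutants. In the coding sequence 39.5% to 41.8% were called lower. PCK1, a gluconeogenic enzyme, had 0, 3 and 5 5′-region reads in npy1Δ, against 5282, 5311 and 5834 in WT. JEN1, a lactate transporter, had 8, 2 and 21 reads in npy1Δ, against 1678, 1840 and 2464 in WT. Both glucose-induced hexose transporters rose in every mutant: HXT3 had 4453, 3851 and 2420 reads in npy1Δ, against 6, 19 and 43 in WT (6.85 ± 0.32), and HXT1 had 152, 129 and 170 in npy1Δ, against 10, 8 and 16 in WT (3.27 ± 0.25). The HXT1 coding sequence changed less, with 4246, 3997 and 5066 reads in npy1Δ against 2438, 2739 and 2480 in WT (0.50 ± 0.14). The part of the carbon state of the WT cultures in the differences of the 10 genes was not tested.

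RNAs whose 5′ level over the 24 libraries was most like the mean profile of the 10 genes were sought. The search covered 2730 mRNAs with a mean above 50 reads in WT. For the profile, the log2 level of each gene was centred and scaled to its SD, so that every gene weighed the same. ERR1 (YOR393W) and NQM1 (YGR043C) both had a Pearson r of 0.990, YGR069W 0.989, and RTC2 (YBR147W) and YGR067C 0.988. In all, 277 of the 2730 had an r above 0.95, since the 3 WT libraries set the pattern. Of the 10 genes, 8 had an r of 0.945 to 0.986 with the profile, while PXA1 had 0.66 and CTA1 −0.43. In the coding sequence all 10 had an r of 0.973 to 0.998 with their mean profile, PXA1 0.987 and CTA1 0.973. Each gene is itself part of the profile.

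In capture, the 10 genes took the largest share of mRNA reads in WT. An RNA was called enriched in +ADPRC over −ADPRC libraries at a fold change above the square root of 2 and an unadjusted p below 0.05. Of 8 genes tested in WT, 6 were enriched, beside 47% of all RNAs tested. CAT2 had 133, 13 and 10 reads in +ADPRC and 3, 0 and 0 in −ADPRC (log2 fold change 4.53 ± 1.05, adjusted p = 0.000157). FAA2 had 51, 19 and 0 reads in +ADPRC, POT1 48, 6 and 3, FOX2 41, 3 and 3, SPS19 20, 11 and 3, and PXA1 11, 7 and 2, all against 0 in −ADPRC, with adjusted p of 0.000686, 0.00267, 0.00648, 0.00812 and 0.0417. POX1, with 14, 7 and 0 reads in +ADPRC and 3, 0 and 2 in −ADPRC, was not called (0.95 ± 1.47, adjusted p = 0.585), and neither was ECI1, with 13, 0 and 1 in +ADPRC and 4, 0 and 0 in −ADPRC (0.72 ± 1.78). CTA1 (10, 1 and 0 in +ADPRC) and PXA2 (8, 0 and 0 in +ADPRC) had 0 reads in −ADPRC and too few to test.

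The WT capture rests largely on 1 library. The first +ADPRC replicate held 349 reads of the 10 genes and the others 67 and 22, against 10, 0 and 2 in −ADPRC. With DESeq2 5 of the genes were called, FAA2 no longer being among them (adjusted p = 0.139). Without that first replicate FOX2 was not called (adjusted p = 0.129), without the second PXA1 was not (adjusted p = 0.12), and edgeR's filterByExpr left 1 gene called, CAT2. Set against the share of mRNA reads in the transcriptome, the captured share of CAT2 was 2.30 and ranked 135 among 1799 mRNAs with a WT mean above 100 reads (216 without the first replicate). FAA2 ranked 330 with 1.24 (381 without it) and FOX2 576 with 0.718, where the median was 0.343. Without that replicate the ratio was 1.58 for CAT2, 1.03 for FAA2 and 0.459 for FOX2, which then ranked 731, and the median was 0.283.

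The mutants had few captured reads of the 10 genes. In npy1Δ the +ADPRC libraries held 35, 5 and 32 of them and the −ADPRC libraries 0, 10 and 5, and 4 genes could be tested. ECI1 was enriched, with 10, 2 and 15 reads in +ADPRC and 0 in all −ADPRC libraries (5.70 ± 1.85, adjusted p = 0.0219), beside 50.4% of all RNAs tested, and the call was lost without the third +ADPRC replicate (adjusted p = 0.129). FAA2 had 14, 1 and 7 reads in +ADPRC and 0, 4 and 1 in −ADPRC (1.12 ± 1.24), PXA2 2, 0 and 10 in +ADPRC and 0 in −ADPRC (4.55 ± 2.35, adjusted p = 0.117), and POX1 1, 0 and 0 in +ADPRC and 0, 6 and 4 in −ADPRC (−3.66 ± 1.70, adjusted p = 0.0819).

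In the other mutants edgeR called none of the genes enriched, with 0 at an unadjusted p below 0.05 and 0 called by DESeq2 in each. This count depends on the scaling: with RLE factors edgeR called 1 in dxo1Δ, 1 in rai1Δ and 2 each in dxo1Δnpy1Δ, dxo1Δrai1Δ and the triple mutant, and with total counts 1 in dxo1Δ, 3 in dxo1Δnpy1Δ and 2 each in dxo1Δrai1Δ and the triple mutant. The shares over all RNAs tested were 87.3% in dxo1Δ, 61.2% in rai1Δ, 61.5% in dxo1Δnpy1Δ, 70.5% in dxo1Δrai1Δ, 83.2% in rai1Δnpy1Δ and 56.5% in the triple mutant. At this depth 1 gene could be tested in each of the first 4 strains, 0 in rai1Δnpy1Δ and 3 in the triple mutant. FAA2 was the tested gene in dxo1Δ, with 1, 4 and 3 reads in +ADPRC and 0, 1 and 0 in −ADPRC (1.87 ± 1.21), and in dxo1Δnpy1Δ, with 2, 6 and 2 in +ADPRC and 2, 0 and 0 in −ADPRC (−0.10 ± 1.33). The last value depends on the TMM factors, since with total counts all 3 genes tested in dxo1Δnpy1Δ were called enriched. ECI1 had 6, 5 and 1 reads in +ADPRC and 0 in −ADPRC in dxo1Δrai1Δ (4.33 ± 2.48, adjusted p = 0.0984), and 3, 4 and 10 in +ADPRC and 0, 0 and 1 in −ADPRC in the triple mutant, where it was not called. With so few reads, an enrichment of the genes left untested was not detectable.

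In reads per 1000000 mRNA reads, the 10 genes together held 6.73 to 59.7 in the 21 +ADPRC libraries of mutants (median 26.1), against 733 to 1705 in the 3 of WT. The −ADPRC libraries held 0 to 127 in mutants and 0 to 272 in WT. These −ADPRC shares rest on 0 to 10 reads of the 10 genes per library, over as few as 1162 mRNA reads. They are too rough to be set against the +ADPRC shares, which rest on 1 to 35 reads per mutant library. The captured share and the transcript share were thus both lower in the mutants. By the labels, the capture libraries of npy1Δ and WT share a sequencing run and those of the other 6 mutants were on other runs, so for these 6 the run and the deletion cannot be told apart, here and in the comparison of enrichment with WT.

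**Figure D4:**
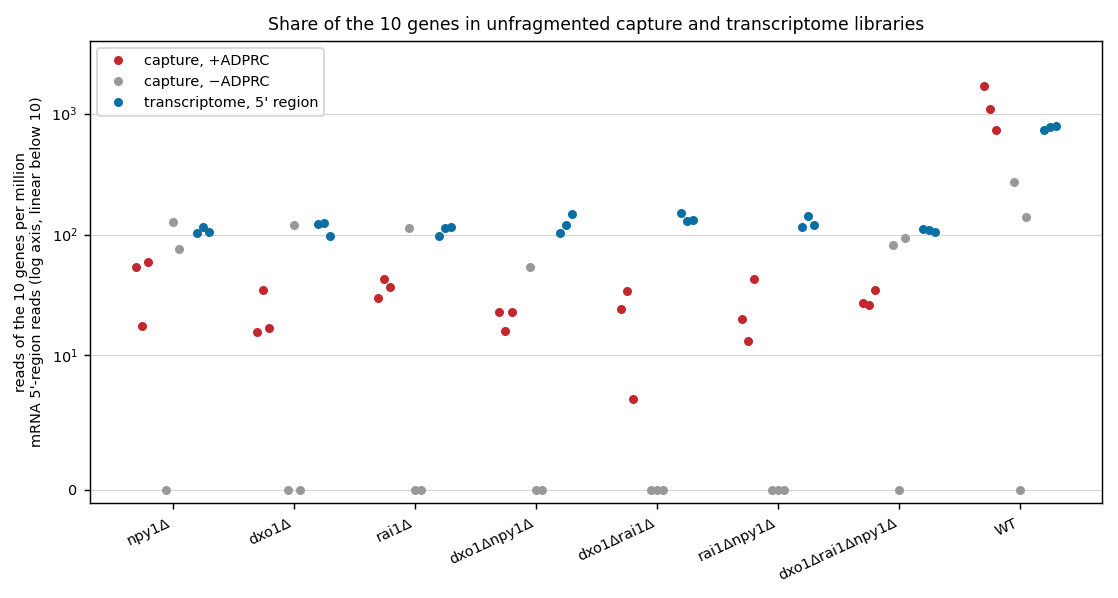
Summed level of the 10 genes, in reads per 1000000 mRNA reads, in each strain, in +ADPRC (red), −ADPRC (grey) and transcriptome 5′ regions (blue), on an axis that is logarithmic above 10 and linear below it. WT +ADPRC libraries lie at 733 to 1705 and those of mutants at 6.73 to 59.7. Each −ADPRC point rests on 0 to 10 reads. The blue points include CTA1, whose 5′ count was not lower in the mutants.

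Whether enrichment itself differed between a mutant and WT was tested by the term for strain and ADPRC together in edgeR. It was called for none of the genes: 0 of 10 in npy1Δ (7.38% of all RNAs tested), 0 of 8 in dxo1Δ (8.06%), rai1Δ (10.4%), dxo1Δnpy1Δ (9.07%), dxo1Δrai1Δ (5.4%) and the triple mutant (6.52%), and 0 of 7 in rai1Δnpy1Δ (11.5%). At an unadjusted p below 0.05 there were 2 in npy1Δ, 1 each in rai1Δ, dxo1Δnpy1Δ and the triple mutant, and 0 in the others, and DESeq2 was not run for this term. The largest estimates with a usable error were those of FAA2 in npy1Δ (−7.37 ± 2.56, adjusted p = 0.0531), dxo1Δnpy1Δ (−6.43 ± 2.50, adjusted p = 0.0935) and the triple mutant (−6.50 ± 2.63, adjusted p = 0.138). FAA2 itself had 0 reads in all WT −ADPRC libraries, so the size of these estimates is only rough. Where the term had no usable error, in genes with 0 reads in 1 or more of the groups, it says nothing.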

How the data were processed

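Per the labels and the study's methods, the authors trimmed reads, set those of rRNA and tRNA aside, used Bowtie to map what remained to the BY4742_Toronto_2012 build and deposited raw read counts per RNA made with HTSeq by strand, without normalization. The submitters' processing notes also name SAMtools 0.1.13 and DESeq2 1.4.5. Coding-sequence counts come from the same transcriptome libraries. The authors' comparison tables (base mean, log2 fold change, SE, p and adjusted p) and 24 columns of fragmented capture were not used here. The files hold 0 rows that name no gene. Of the mRNAs, 5914 were matched to the RefSeq assembly of S288C for names and neighbouring genes only, since it is another build than the files use, and no sequence or motif was analysed here.

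Counts were tested with the quasi-likelihood F test of edgeR 4.0.16 in R 4.3.3 (TMM normalization, Benjamini-Hochberg adjustment over all RNAs tested) and limma 3.58.1, with DESeq2 1.42.0 as an alternative, and summarised in Python 3.11.15 with pandas 2.3.3, scipy 1.17.1 and matplotlib 3.10.9. An RNA was tested with a mean TMM-scaled count above 1 over the libraries compared. Transcripts were called at an adjusted p below 0.05, and capture at a fold change above 1.414 with an unadjusted p below 0.05. The SE is the absolute log2 fold change over the root of F. A group with 0 reads was set to 3 reads in all to bound its fold difference, and with 1 to 3 reads the ratio has an exact Clopper-Pearson interval (95%). Reads carry no molecular identifiers, so floors and intervals cover counting error only. The tests were checked on simulated counts with the same low spread for every RNA and changes only in well-counted RNAs. This check does not cover tests on a few reads or the wider spread of the capture libraries.

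The genes and lists were chosen with earlier results of these data known. All 10 genes are named throughout. From each list the text names genes of the highest WT level or the largest fold change, except RKM4 and ADH2, which were chosen after their values were seen. Alternatives were RLE factors, total counts, DESeq2, filterByExpr, no filter, one fit of all 24 libraries, coding-sequence counts, the replicate block and each library left out. The alternatives for coding-sequence counts were chosen after seeing the data. In none of the 24 comparisons checked did all same-numbered libraries correlate above a low limit, so replicate numbers were not taken as pairs. In some of them each library was still closest to its own number, as between dxo1Δnpy1Δ and dxo1Δ (0.077, 0.146 and 0.215).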

Additional observations from a re-analysis of the deposited data

How the results depend on the processing

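Of the counts of called genes in transcriptomes, 273 of 288 alternatives stayed within 1.5 times the value given in the report, as did 87 of 104 for capture and 101 of 105 for the difference in enrichment. Against WT, every coding-sequence count stayed at 10 with any 1 library left out, and the 5′ counts stayed between 8 and 10. Between dxo1Δrai1Δ and dxo1Δ, the 5′ count of 0 became 1 with RLE factors, 1 with no filter and 3 in the coding sequence, and ranged from 0 to 1 with a library left out (1 without dxo1Δrai1Δ replicate 1). Between the triple mutant and dxo1Δnpy1Δ, the count of 2 became 4 in the coding sequence and ranged from 1 to 2 with a library left out. Between rai1Δnpy1Δ and npy1Δ, the count of 2 became 0 with DESeq2 and ranged from 0 (without rai1Δnpy1Δ replicate 2) to 2. In WT capture, the count of 6 became 1 with filterByExpr. In npy1Δ capture, the count of 1 became 2 with total counts and 0 with filterByExpr, and ranged from 0 to 1. The count of 0 enriched genes became 1 in dxo1Δ with RLE factors, 1 with total counts and 0 to 1 with a library left out (1 without +ADPRC replicate 1 or −ADPRC replicate 2). It became 1 in rai1Δ with RLE factors, 2 in dxo1Δnpy1Δ with RLE factors and 3 with total counts, 2 in dxo1Δrai1Δ with either, and 2 in the triple mutant with either and 0 to 1 with a library left out (1 without −ADPRC replicate 3). For the difference in enrichment, the count of 0 ranged from 0 to 2 in npy1Δ (2 without npy1Δ −ADPRC replicate 1 or WT +ADPRC replicate 3, 1 without npy1Δ −ADPRC replicate 3) and from 0 to 1 in dxo1Δnpy1Δ (1 without WT +ADPRC replicate 3). The cause of these changes was not tested.

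Directions reversed for 3 genes of the 5′ region. In the coding sequence CTA1 was at −4.83 in npy1Δ, −4.05 in dxo1Δ, −3.92 in rai1Δ, −3.97 in dxo1Δnpy1Δ, −4.00 in dxo1Δrai1Δ, −3.88 in rai1Δnpy1Δ and −4.04 in the triple mutant. With total counts PXA1 was at 1.02 in dxo1Δ, 0.47 in rai1Δ, 1.27 in dxo1Δnpy1Δ, 0.15 in dxo1Δrai1Δ, 0.57 in rai1Δnpy1Δ and 0.28 in the triple mutant, and ECI1 at 0.029 in rai1Δ, 0.26 in dxo1Δnpy1Δ and 0.37 in rai1Δnpy1Δ, where this scaling moved the median of all RNAs by 1.46 to 1.74. Of these total-count values, only those of PXA1 in dxo1Δ and dxo1Δnpy1Δ were called. The 5′ call of CTA1 was lost in rai1Δ and the triple mutant with RLE factors. With the replicate number as a block, the count between rai1Δnpy1Δ and npy1Δ became 0, that of npy1Δ capture 0 and that of WT capture 5. Deviations of same-numbered libraries correlated at −0.15 to 0.38, so the numbers were not taken as pairs. The low read counts in capture and in the 5′ regions of the mutants set the precision.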
